A study of Homo sapiens with 2 samples.

Results

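The interferon receptor chains, the kinases bound to them and the protein kinase D family member PRKD2 were followed in Huh-7, a human hepatoma cell line, with and without interferon-alpha. The members were 10 genes: the receptor chains IFNAR1, IFNAR2, IFNGR1, IFNGR2, IFNLR1 and IL10RB, the Janus kinases JAK1, JAK2 and TYK2, and PRKD2. Every probe set annotated to a single one of these genes was taken, which gave 26 of the 54613 probe sets other than controls and 10 of 19775 named genes. After a first incubation of 24 hours, one flask of cells was exposed for 6 hours to 100 U/mL of recombinant human interferon-alpha, subtype 2b. The other flask, the untreated control, received a change of medium alone, and when it was harvested relative to the exposure is not stated in the sources used here. One Affymetrix array was hybridised per flask from 6 µg of total RNA, so no value has a replicate, no test can be made, and each difference below compares 2 arrays rather than 2 conditions with a known spread.

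Interferons signal through pairs of receptor chains, each of which carries its own Janus kinase on the cytoplasmic tail. Type I interferons such as interferon-alpha bind IFNAR1, which carries TYK2, and IFNAR2, which carries JAK1. Interferon-gamma uses IFNGR1 with JAK1 and IFNGR2 with JAK2, whereas the lambda interferons, to which hepatocytes and other epithelia respond, use IFNLR1 with JAK1 and IL10RB with TYK2. The activated kinases phosphorylate STAT proteins, which carry the signal to the nucleus. PRKD2 is a serine/threonine kinase known to phosphorylate IFNAR1 after ligand binding, in the motif that recruits a ubiquitin ligase, after which the chain is internalised and degraded.

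PRKD2 was the only one of the 9 members bright enough to be counted that differed by 2-fold between the arrays, as they were scaled when deposited. Its intensity was 340.58 on the untreated array and 733.26 on the interferon array, a ratio of 2.15-fold (log2 1.11). The other 8 had log2 ratios between -0.11 and 0.26, and JAK2 was too dim on either array to be given a ratio. A gene was counted when its probe set reached an intensity of 48.46, the median of all values of both arrays together and the floor to which lower values were raised, on at least 1 array. Where a gene had several probe sets, the one with the highest mean log2 intensity stood for it. Of the 9 counted members, 1 was at least 2-fold higher with interferon, whereas 57 of all 13269 counted genes (0.43%) were. None of the 9 was at least 2-fold lower, as was the case for 0 of the 13269 (0%). Only PRKD2 passed 1.5-fold in either direction, which 111 genes (0.837%) did. With every ratio centred on the hybridisation controls, PRKD2 was 1.60-fold higher and the count past 2-fold was 0.

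**Figure D1:**
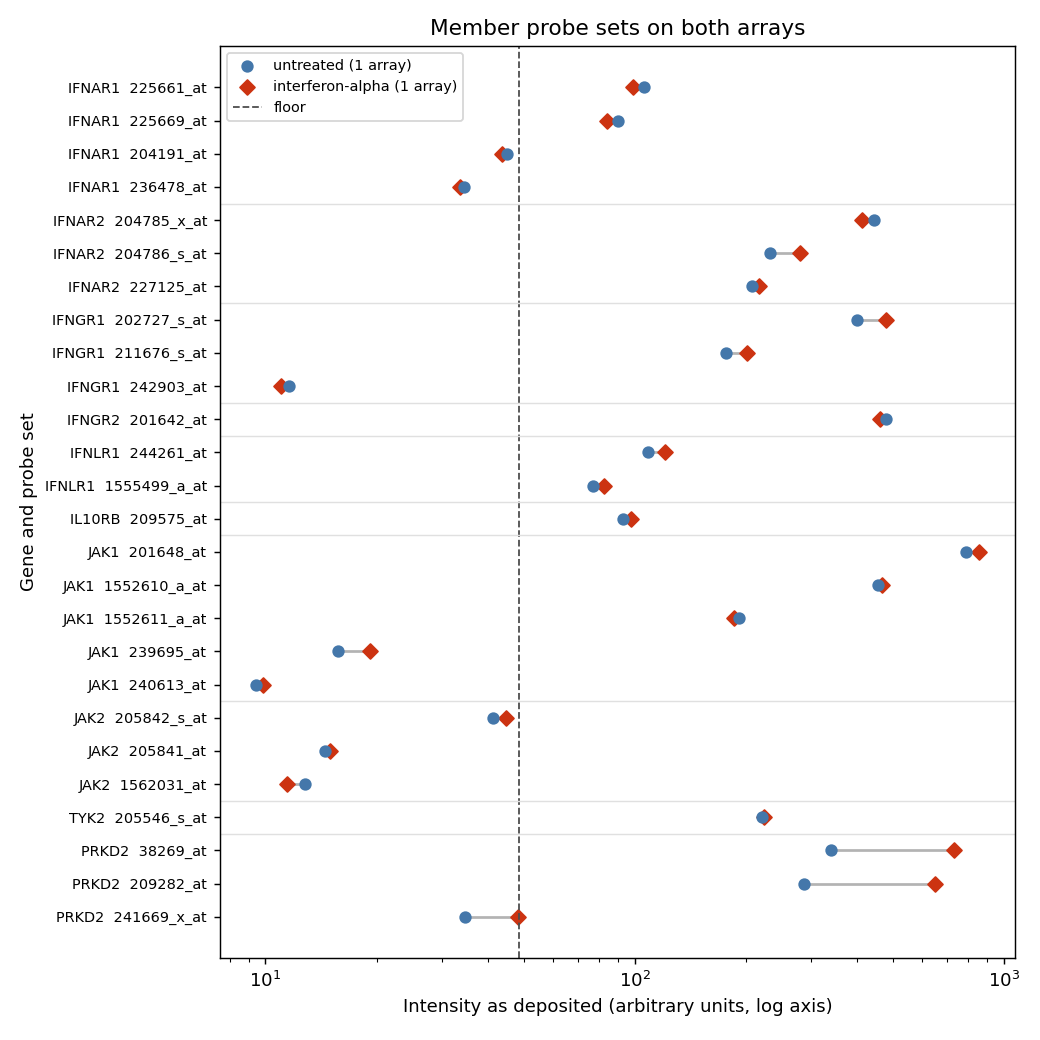
Deposited intensity (log axis, arbitrary units) of all 26 member probe sets on the untreated array (circles) and the interferon array (diamonds), 1 array each, with the floor of 48.46 as a dashed line. The upper pair of PRKD2 probe sets moved from 340.58 and 287.32 to 733.26 and 647.8, while both symbols of most other probe sets nearly overlap.

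Both PRKD2 probe sets above the floor gave a similar difference. Probe set 38269_at had the intensities given above, and 209282_at had 287.32 untreated and 647.8 with interferon, or 2.25-fold (log2 1.17). On these probe sets the interferon array stood 392.68 and 360.48 intensity units above the untreated one. The remaining probe set, 241669_x_at, remained under the floor with values of 34.79 and 48.18, the higher value again on the interferon array. Of the 6209 genes with at least 2 counted probe sets, 12 (0.193%) had every one of them at least 2-fold higher, and PRKD2 was among these 12. Only 26 genes past 2-fold had at least 2 counted probe sets, so the small share mostly reflects how few genes passed 2-fold. In RNA from a whole flask, more RNA per cell and more cells with the transcript cannot be told apart.

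In size PRKD2 ranked 51 of 13269 genes by log2 ratio from the highest. It was therefore near the lower end of the 57 genes past 2-fold. Genes within 0.05 of its log2 ratio numbered 5, namely HLA-E, IFIT2, OAS2, TNFSF10 and DDX60L. With 2 arrays a gene's pattern is a single ratio, so likeness here means the size of 1 ratio. For 4 of the 5 the ratio was only a lower bound set by the floor, since IFIT2 (38.38 untreated), OAS2 (19.47), TNFSF10 (42.89) and DDX60L (16.36) were below it without interferon. HLA-E, measured above the floor on both arrays at 183.73 and 387.98, had a log2 ratio of 1.08.

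**Figure D2:**
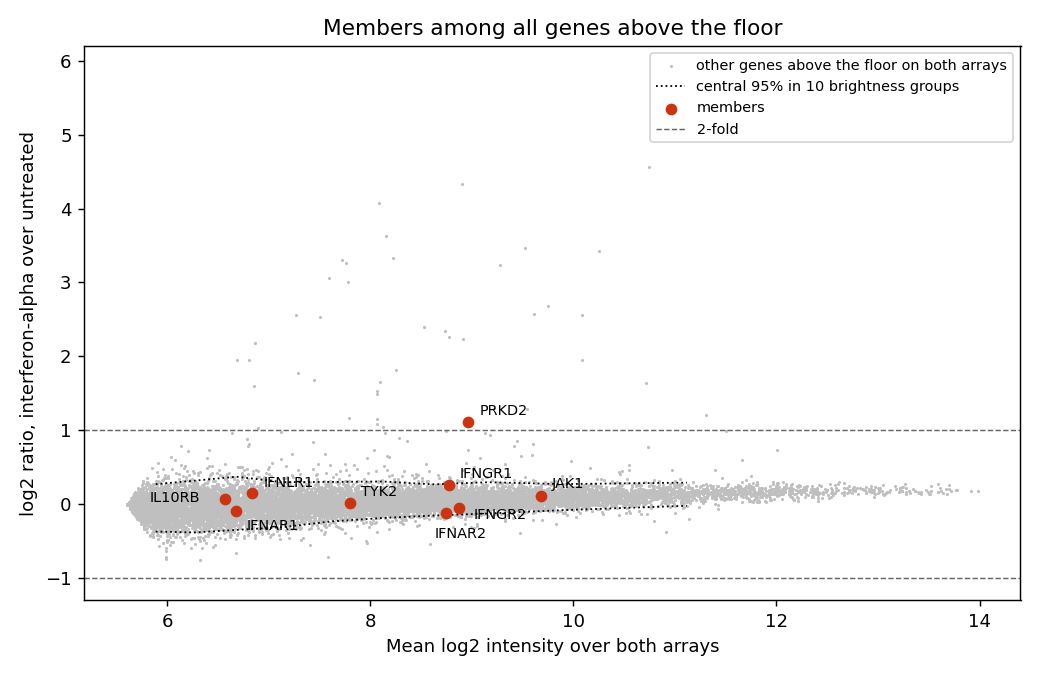
log2 ratio of interferon over untreated against mean log2 intensity for 12742 genes that exceeded the floor on both arrays (grey) and the 9 counted members (red), with the central 95% of ratios in 10 groups of equal size by brightness (dotted) and 2-fold as dashed lines. PRKD2 lies at 1.11, above the upper dotted line near 0.30, and the other 8 members lie between the dotted lines.

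A gene of the same brightness group as PRKD2 (1274 genes) had a log2 ratio between -0.13 and 0.30 in the central 95% of cases, with a median of 0.06. PRKD2 was the only counted member outside the range of its own group, and by construction 2.51% of genes lie above such a range. This spread is across genes within 1 pair of arrays and is no replicate error. The closest relatives of PRKD2 did not share the difference in size. PRKD1 had intensities of 390.8 and 367.52 (log2 -0.09), and PRKD3 had 203.71 and 239.91 (log2 0.24, with 3 counted probe sets from 0.10 to 0.24). The measured protein-coding genes nearest to PRKD2 on chromosome 19, looked at after its value was seen, were not higher with interferon. STRN4 had 374.56 and 351.46, GNG8 had 106.72 and 83.62, and DACT3 had 52.26 and 45.4, the latter below the floor. A further protein-coding entry placed between PRKD2 and STRN4 had no probe set annotated to it alone.

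Because PRKD2 carries the difference, the 250 bases before each of its annotated transcription starts are shown, from RefSeq on GRCh38.p14. The first window is chr19:46717115-46717364 and the second, before a start inside the gene, is chr19:46714321-46714570, both on the minus strand and printed 5′ to 3′ along the gene. Capitals mark a match to TTCNNNGAA, the palindromic core of the gamma-activated site bound by STAT dimers.
PRKD2 outer start: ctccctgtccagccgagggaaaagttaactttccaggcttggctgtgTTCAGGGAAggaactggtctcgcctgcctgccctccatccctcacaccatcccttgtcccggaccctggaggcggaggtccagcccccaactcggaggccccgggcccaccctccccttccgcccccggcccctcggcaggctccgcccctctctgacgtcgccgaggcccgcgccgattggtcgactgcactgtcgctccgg
PRKD2 inner start: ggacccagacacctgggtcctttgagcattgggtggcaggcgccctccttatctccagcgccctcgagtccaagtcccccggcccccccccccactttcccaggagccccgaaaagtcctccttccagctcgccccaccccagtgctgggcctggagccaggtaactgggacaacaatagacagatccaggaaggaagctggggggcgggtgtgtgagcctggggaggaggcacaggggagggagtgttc
The outer window held 1 such match, TTCAGGGAA, beginning 203 bases before the start, and the inner window held none. Neither held the core of the interferon-stimulated response element, searched on both strands as GAAA, any 2 bases and GAAA again, a motif known from promoters of interferon-stimulated genes. The search covered the 17 windows of 9 members, all but IFNAR2.

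None of these 9 members had the response element core in a window. It was present for only 3.71% of the 27305 genes in the table, so its absence from 9 genes does not set the members apart. Of the 48 genes past 2-fold that the table holds, 28 had it (58.3%), and PRKD2 is the only member among the 48. The gamma-activated site core was present for 2 of the 9 (22.2%), in the outer PRKD2 window and in that of IFNLR1, whose match is TTCCGGGAA beginning 238 bases before the start. It was present for 8.09% of all genes in the table and 27.1% of the 48. The 9 members had 17 windows, and the 27305 genes had 35116. Counted by window, the gamma-activated site core was in 11.8% of the member windows and 6.57% of all windows. These are matches of letters in a fixed window, and they describe neither binding nor its absence. For contrast, the response element core as it stands before genes that responded on these arrays is shown in capitals within 30 bases each (GRCh38.p14, printed along the gene). ISG15 is at chr1:1013374-1013403 (plus strand), IFI6 at chr1:27672329-27672358 (minus strand), and IFIT1 at chr10:89392497-89392526 (plus strand), where the core reads on the opposite strand. The ISG15 window holds 2 overlapping matches.
ISG15: catgcctcggGAAAGGGAAACCGAAActga
IFI6: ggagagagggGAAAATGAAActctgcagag
IFIT1: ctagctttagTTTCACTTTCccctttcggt
These 3 genes had intensities of 351.17 and 8331.72 for ISG15, 67.02 and 558.74 for IFI6, and 25.28, below the floor, and 3124.53 for IFIT1.

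The type I receptor chains, through which the added interferon acts, differed little between the arrays. IFNAR1 had 105.82 untreated and 98.82 with interferon on probe set 225661_at (log2 -0.10). A second probe set, 225669_at, had 89.87 and 83.83, which is the same log2 ratio of -0.10. The other 2 of its 4 probe sets did not reach the floor on either array, with 45.16 and 43.63 on 204191_at and 34.52 and 33.63 on 236478_at. All 4 IFNAR1 probe sets were thus slightly dimmer on the interferon array, by 0.89 to 7 intensity units. The log2 ratio of -0.10 lay well inside the central 95% of its brightness group, from -0.35 to 0.37. The median of that group was also below 0, at -0.03.

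IFNAR2, the chain that binds interferon-alpha with high affinity, was read differently by its 3 probe sets. Probe set 204785_x_at had 445.25 and 411.47 (log2 -0.11), 204786_s_at had 232.32 and 279.82 (log2 0.27), and 227125_at had 207.5 and 217.18 (log2 0.07). One probe set was therefore dimmer and 2 were brighter on the interferon array, so no direction can be given for this gene. The range of 0.38 between its probe sets was reached or exceeded in 434 of the 5912 genes (7.34%) that had more than 1 probe set above the floor on each array, whose median range was 0.14. A range tends to widen with the number of probe sets, and those genes were not matched to IFNAR2 in that number. IFNAR2 is known to be spliced into a full-length chain, a truncated chain and a soluble form, and which of them each probe set reads was not analysed here. Names ending in _x_at or _s_at mark probes that can also match other transcripts, and 227125_at is the single probe set of this gene without that ending.

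The chains of the interferon-gamma receptor gave small ratios of opposite sign. IFNGR1, the ligand-binding chain, had 400.35 and 478.34 on 202727_s_at (log2 0.26) and 176.09 and 201.67 on 211676_s_at (log2 0.20). Its remaining probe set, 242903_at, was far below the floor at 11.61 and 11.01. Both IFNGR1 probe sets above the floor were brighter with interferon, and the log2 ratio of 0.26 was just inside the upper end of the central 95% of its brightness group, 0.27. IFNGR2, the accessory chain, was read by 1 probe set with 477.85 and 461.92 (log2 -0.05). IFNGR1 stood at rank 564 of 13269 genes, and 768 other genes (5.79%) lay within 0.05 of its log2 ratio.

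Both chains of the interferon-lambda receptor were above the floor on both arrays. Without a detection call this does not show that they are expressed. Their untreated intensities were of the size of that of the leukocyte marker CD14 (91.08). IFNLR1, the chain particular to this receptor, had 108.32 and 120.78 on 244261_at (log2 0.16) and 76.84 and 82.67 on 1555499_a_at (log2 0.11). IL10RB, which is shared with the receptors for interleukin-10, interleukin-22 and related cytokines, had 92.58 and 97.38 on its 1 probe set (log2 0.07). All 3 probe sets were thus brighter with interferon by 4.8 to 12.45 intensity units, in a brightness group whose central 95% ran from -0.35 to 0.37 for both genes.

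Among the kinases, JAK1 and TYK2 were above the floor and JAK2 was not. JAK1, which serves all 3 types of interferon receptor, had 788.05 and 854.69 on 201648_at (log2 0.12), 453.82 and 467.32 on 1552610_a_at (log2 0.04) and 191.6 and 185.2 on 1552611_a_at (log2 -0.05). Its other probe sets, 239695_at at 15.71 and 19.13 and 240613_at at 9.42 and 9.86, did not reach the floor on either array. The 3 counted JAK1 probe sets did not share a sign, and their range of 0.17 was close to the median range of 0.14 for genes with several probe sets. Those genes were not matched to JAK1 in the number of probe sets. On the untreated array alone, probe sets of JAK1 ran from 9.42 to 788.05, so an intensity reflects the probe set as well as the transcript, and no order of abundance is read between the members.

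TYK2 had 221.29 and 223.27 on its 1 probe set, 205546_s_at, a log2 ratio of 0.01. JAK2, the kinase of the IFNGR2 chain and of the growth hormone and erythropoietin receptors, was below the floor on both arrays with all 3 probe sets. These were 41.3 and 44.88 on 205842_s_at, 14.52 and 14.95 on 205841_at and 12.79 and 11.43 on 1562031_at. No ratio is given for it, and no detection call was used, so whether these intensities differ from the array's background is unknown. JAK3, the Janus kinase of lymphoid cells, had 48.42 and 49.97, at the floor.

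Apart from PRKD2, the receptor chains and kinases had ratios centred near those of all genes. The 8 had a median log2 ratio of 0.04 beside 0.03 for all 13269 counted genes, and with PRKD2 the median of the 9 was 0.07. Of the 9, 6 had a log2 ratio above 0, as did 58.5% of all counted genes. By probe set, 17 of the 26 exceeded the floor on both arrays and 9 on neither. Of those 17, 12 were brighter and 5 dimmer with interferon, and 2 (both of PRKD2) were at least 2-fold brighter, beside 0.364% of the 23871 counted probe sets of single genes.

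IFNAR2, IL10RB, IFNAR1 and IFNGR2 lie next to one another on chromosome 21 in that order, as RefSeq places them, and their log2 ratios were -0.11, 0.07, -0.10 and -0.05. The transcript IL10RB-DT, which starts beside IL10RB in the opposite direction, had 65.82 and 59.74 (log2 -0.14). TMEM50B, the next gene after IFNGR2, had 256.89 and 257.74 (log2 0.005). OLIG1 and OLIG2, the nearest protein-coding genes on the other side, were below the floor on both arrays. No counted gene of the cluster differed by 1.5-fold. The other members lie on chromosomes 1 (JAK1 and IFNLR1), 6 (IFNGR1), 9 (JAK2) and 19 (TYK2 and PRKD2).

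The rest of the pathway was described through lists chosen by function, with earlier results of these data known. Of 8 STAT and IRF9 genes listed, 5 were counted, of which 1, IRF9, was at least 2-fold higher, from 106.66 to 2143.05 (log2 4.33). The lowest of them was STAT5A at 87.87 and 81.23 (log2 -0.11). Of 14 brakes on the receptors and kinases, 12 were counted, and 1 was at least 2-fold higher with a list median of 0.07. That gene was USP18, a protease that also binds IFNAR2 and displaces JAK1 from it, with 320.25 and 1908.39 (log2 2.58). The lowest was PTPN1, a phosphatase that acts on the JAK kinases, at 257.51 and 241.16 (log2 -0.09). SOCS1, also on this list, had a log2 ratio of 0.17. Its 3 counted probe sets ran from 0.09 to 0.65, the highest past 1.5-fold.

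A further list held 12 genes for the phosphorylation, ubiquitination and trafficking of IFNAR1, all of them counted. It includes CSNK1A1 and EIF2AK3, kinases known from a route to IFNAR1 phosphorylation that needs no ligand. None of the 12 was 2-fold or 1.5-fold different, and the median log2 ratio was 0.07. The highest was SKP1, a subunit of the ubiquitin ligase, at 4220.41 and 4877.14 (log2 0.21, but -0.06 on the lowest of its 4 probe sets). The lowest was AP2A1, a subunit of the endocytic adaptor, at 359.63 and 320.13 (log2 -0.17, with 4 probe sets from -0.18 to 0.19). BTRC, the substrate-binding subunit that recognises the phosphorylated IFNAR1 motif, had 122.97 and 125.16 (log2 0.03), and its paralogue FBXW11 had 533.44 and 555.91 (log2 0.06).

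**Figure D3:**
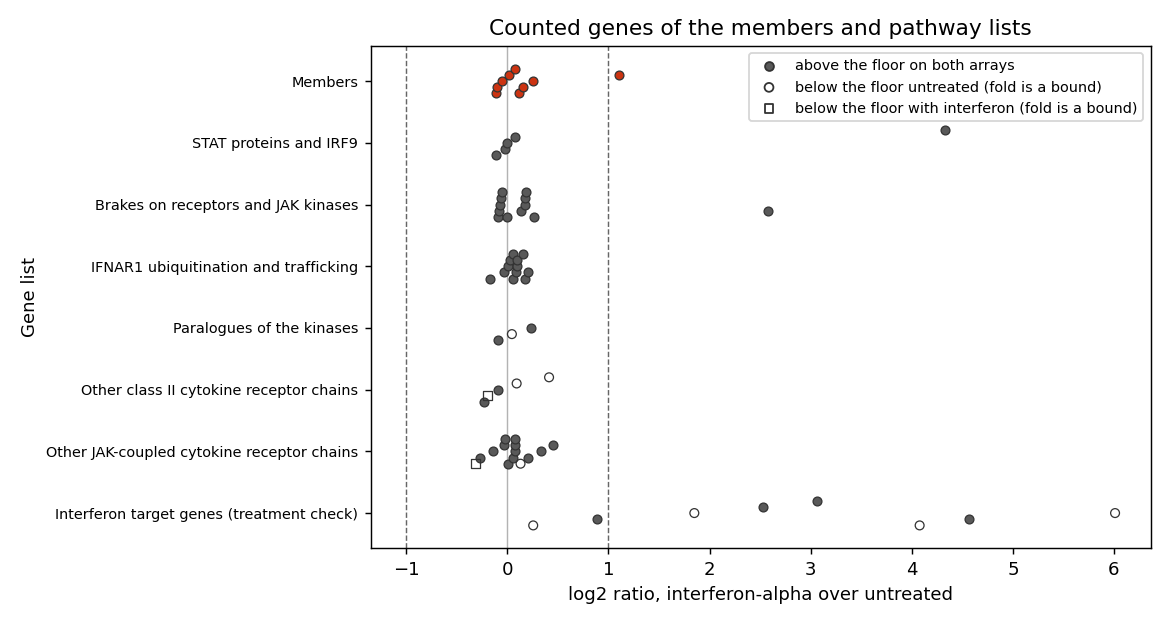
log2 ratio of interferon over untreated for each counted gene of the members (red) and of 7 pathway lists with counted genes, 1 point per gene, with dashed lines at 2-fold. Open symbols mark ratios that the floor makes bounds. Single genes pass 2-fold in the upper 3 rows (PRKD2 at 1.11, IRF9 at 4.33 and USP18 at 2.58), none does in the 4 rows below, and 6 of 8 do among the interferon target genes.

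Other receptor chains of the same structural class or coupled to the same kinases were described in the same way, with values below the floor raised to it. No counted chain passed 1.5-fold, but the ratios of IL20RA, IL20RB, IL22RA1, IL11RA and IL2RG are bounds and do not show that they stayed under it. Of 6 other class II chains, 5 were counted, with a median log2 ratio of -0.09 that includes bounds. IL10RA had 57.7 and 49.28 (log2 -0.23), and F3 had 124.77 and 117.24 (log2 -0.09). IL20RA had 55.44 and 41.74, the latter below the floor and thus at least 1.14-fold lower. IL22RA1, which pairs with IL10RB for interleukin-22, had 45.26, below the floor, and 64.48, or at least 1.33-fold higher. Of 20 other JAK-coupled chains, 14 were counted, with a median of 0.06, and 5 of the 19 measured were below the floor throughout. Here the highest was OSMR, a receptor chain for oncostatin M, at 227.29 and 309.7 (log2 0.45, with 3 probe sets from 0.23 to 0.45), and the lowest was IL2RG at 60.37 and 45.71, the latter below the floor and thus at least 1.25-fold lower. Of 10 interferon genes listed, all 9 measured stayed under the floor throughout, whereas 13269 of all 19775 genes were counted. They lay between 8.06 and 43.52 untreated and between 7.76 and 40.84 with interferon. IFNA1 and IFNA2 were the only interferon-alpha genes on the list.

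That the treated flask had responded was visible in known interferon targets, of which 6 of the 8 counted were at least 2-fold higher, with a median log2 ratio of 2.80 that includes bounds. IFIT1 was at least 64.5-fold higher, and CXCL10, at 24.41, below the floor, and 57.84, was at least 1.19-fold higher, a bound set by the floor. Of the targets above the floor on both arrays, ISG15 had the highest log2 ratio (4.57) and IRF1 the lowest (0.88), with 81.09 and 149.74 for IRF1. The cells matched their label in the hepatocyte genes ALB, AFP, TTR, APOB, APOA1, SERPINA1 and TF, all between 2999.92 and 12212.3 on the untreated array and between 3222.52 and 14587.7 on the interferon array. Among the 5 leukocyte markers measured, 3 failed to reach the floor on either array (PTPRC, CD3E and NKG7), and CD14 and ITGAM had untreated intensities of 91.08 and 66.32. Of 4 endothelial genes listed, CDH5 and KDR were not counted, whereas PECAM1 and VWF had 157.95 and 67.08 untreated. Of 4 fibroblast genes, DCN was not counted, whereas COL1A1, PDGFRB and COL3A1 had 176.35, 133.82 and 51.26 untreated. For comparison, 13269 of all 19775 genes were counted. PECAM1, COL1A1 and PDGFRB were brighter on the untreated array than IFNAR1 (105.82), IFNLR1 (108.32) and IL10RB (92.58). Passing the floor therefore does not by itself show that a gene is expressed. No counted marker passed 1.5-fold, with the ratio of COL3A1 a bound.

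The sizes above depend on how the arrays are set to a common scale, which the sources used here do not describe. The spike-in controls added before hybridisation, 18 probe sets for bacterial and phage sequences, had log2 ratios from 0.14 to 0.56 with a median of 0.43. If that median is subtracted from every ratio, the log2 ratio of PRKD2 becomes 0.68, or 1.60-fold, so no member passes 2-fold, and the other 8 counted members all fall below 0. Under the 9 other alternatives PRKD2 stayed between 1.04 and 1.14 on the log2 scale and past 2-fold. Whether the spike-ins or the bulk of the genes give the truer scale was not tested.

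**Figure D4:**
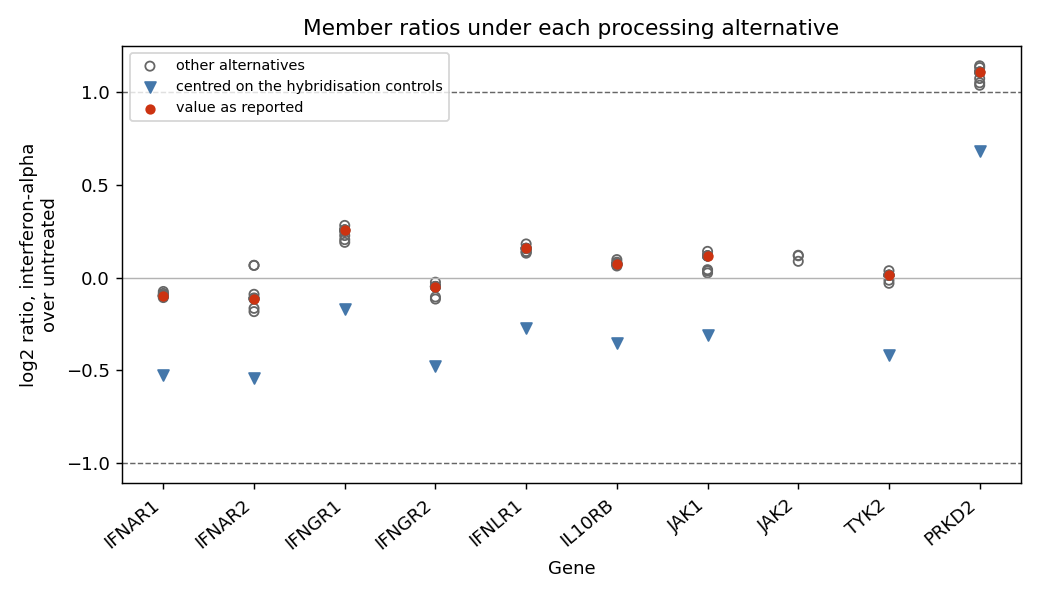
log2 ratio of interferon over untreated for each member gene as reported (red), after centring on the hybridisation controls (blue triangles) and under the other alternatives that gave a value (open circles), with dashed lines at 2-fold. PRKD2 stays above 1 except when centred on those controls (0.68), and JAK2 appears only under the 3 alternatives that count dimmer genes.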

How the data were processed

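Each of the 2 arrays was summarised by the authors into 1 intensity per probe set on a linear scale, and these deposited intensities were used as they stand. Per the submitters' processing notes, GCOS, the software of the array's maker, was used. Not given in the sources used here are its version, the correction for background, the probe summary and how the arrays were scaled to each other. Gene names came from the platform annotation, with symbols updated by gene ID, a match found for 41037 of the 41091 probe sets with 1 gene. Probe sets with several genes (1801) or none named (11721) entered no gene value.

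Values below the floor, the 50th percentile of all non-control values (48.46), were raised to it before log2 was taken, and a fold against a raised value is a bound. The ratio is interferon over untreated. Genes at least 2-fold or 1.5-fold different were counted. Without replicates or detection calls no p-value is given, and the number of arrays limits the precision. The named genes are all members, and from each pathway list the highest and lowest ratio and every gene past 2-fold, with the paralogues of the kinases and the neighbours of the chromosome 21 cluster. Other genes named are examples chosen with their values known. The members and lists were chosen with earlier results of these data known. Promoter windows came from RefSeq (GRCh38.p14), cut to the 250 bases before each start. Alternatives were another floor (40th percentile), pseudocounts of 1 and 16, 4 scalings and 3 rules for choosing probe sets. Python 3.11.15, numpy 2.4.6, pandas 2.3.3 and statsmodels 0.14.6 were used, and the procedure was tested on simulated data.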

Additional observations from a re-analysis of the deposited data

How the results depend on the processing

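Centring on the hybridisation controls changed the count of members at least 2-fold higher from 1 to 0 and the median log2 ratio of the counted members from 0.07 to -0.35. It subtracts 0.43 from every ratio by construction, and the count over all genes became 44 higher and 13 lower. Under the other 9 alternatives the counts of members past 2-fold and past 1.5-fold did not change. Of 79 gene values under those 9, 77 moved by no more than 0.13 on the log2 scale, the robust SD across genes. The exceptions were both of IFNAR2, at 0.07 as the median over its counted probe sets and 0.07 when _x_at and _s_at probe sets were left out, in place of -0.11. TYK2, close to 0, ran from -0.03 (quantile scaling) to 0.04 (median scaling). IFNGR1 and TYK2 had no value without _x_at and _s_at probe sets, and JAK2 had one only with the lower floor (0.12) or a pseudocount. Dim signal limits JAK2 most, and 9 of the 26 probe sets could not be given a ratio.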

Other observations

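Many deposited intensities end in one of 2 decimal parts, 0.316231 or 0.816231, compared after rounding to 6 decimals. This held for 1862 of 54675 values on the untreated array (3.41%) and 1853 on the interferon array (3.39%), and 1782 probe sets had such an ending on both arrays. Among the members, 3 probe sets did so on both arrays, namely 225661_at of IFNAR1, 204786_s_at of IFNAR2 and 1552610_a_at of JAK1. Their differences between the arrays, -7, 47.5 and 13.5 intensity units, are therefore whole or half-unit steps.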
